A study of Mus musculus with 6 samples.

Results

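Tsc22d3, which encodes the glucocorticoid-induced leucine zipper protein (Gilz), and 6 other genes of the glucocorticoid response were followed over 6 bead arrays of mouse leukemia cells. The 7 genes were Tsc22d3, Nr3c1, Fkbp5, Sgk1, Ddit4, Txnip and Zbtb16. Every probe whose platform symbol was one of these names was taken, which gave 10 of the 45281 probes of the table: 3 for Tsc22d3, 2 for Txnip and 1 for each of the others. The genes were chosen with the difference between the groups of these arrays already known, so the differences of the 10 probes are a description and carry no test.

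The Klf4-deficient group held 3 arrays of male mouse T cell acute lymphoblastic leukemia (T-ALL) cells labelled as knockout for the transcription factor gene Klf4, and the control group held 3 arrays of the same kind of leukemia labelled wild type. In both groups the leukemia had been induced by NOTCH1, and the cells had been sorted from bone marrow as GFP+, CD4+ and CD8+ at 4 weeks after transplantation. The sources used here do not say how Klf4 was deleted, which mice received the cells or whether the arrays of a group came from separate animals, so the spread between arrays may be technical.

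Glucocorticoids cross the cell membrane and bind the glucocorticoid receptor, the product of Nr3c1, which is held in the cytoplasm by heat shock chaperones and then moves to the nucleus and binds response elements in DNA. CD4 and CD8 double-positive thymocytes are known to die by apoptosis when exposed to glucocorticoids, and synthetic glucocorticoids are a mainstay of the treatment of acute lymphoblastic leukemia. Tsc22d3, Fkbp5, Sgk1, Ddit4, Txnip and Zbtb16 are known as genes that the hormone can induce, although growth factors, nutrients and stress also act on several of them.

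The start-site regions of the members are shown for the genes on which the results turn and for Sgk1, whose window holds a match to the hormone receptor's motif. RefSeq windows on GRCm38.p6, from 250 bases before to 50 bases after a start, were matched for 5 of the 7 members, 12 windows in all, and Nr3c1 and Zbtb16 were not matched. Capitals mark matches, on either strand, to a glucocorticoid response element (GNACA, 3 bases of any kind, TGTNC), a carbohydrate response element (CACGNG, 5 bases of any kind, CACGNG), a FoxO element (GTAAACA) or a CCAAT box (CCAAT), motifs chosen with the sequences in view. No matches of different motifs overlapped.
Txnip, chr3:96557707-96558006, plus strand: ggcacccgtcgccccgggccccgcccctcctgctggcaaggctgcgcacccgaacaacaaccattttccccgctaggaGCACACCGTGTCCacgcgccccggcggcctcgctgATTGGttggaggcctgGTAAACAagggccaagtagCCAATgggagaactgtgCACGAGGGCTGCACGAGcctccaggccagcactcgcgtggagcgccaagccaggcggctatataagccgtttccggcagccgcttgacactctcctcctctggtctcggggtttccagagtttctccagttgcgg
Sgk1, chr10:21993640-21993939, plus strand: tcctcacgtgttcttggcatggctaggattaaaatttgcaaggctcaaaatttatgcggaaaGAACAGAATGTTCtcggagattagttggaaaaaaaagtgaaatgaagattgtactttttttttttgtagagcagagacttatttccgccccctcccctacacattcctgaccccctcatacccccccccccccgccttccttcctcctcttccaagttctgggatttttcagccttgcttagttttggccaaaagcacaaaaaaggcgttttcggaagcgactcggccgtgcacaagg
Tsc22d3, chrX:140542619-140542918, minus strand: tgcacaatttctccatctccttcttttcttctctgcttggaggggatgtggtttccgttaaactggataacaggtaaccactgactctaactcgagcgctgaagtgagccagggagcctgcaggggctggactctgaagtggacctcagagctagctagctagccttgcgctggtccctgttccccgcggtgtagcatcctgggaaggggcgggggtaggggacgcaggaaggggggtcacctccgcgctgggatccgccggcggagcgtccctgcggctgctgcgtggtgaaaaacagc

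The Txnip window held 5 matches, more than any other member window, including the carbohydrate response element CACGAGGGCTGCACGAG that began 85 bases before the start. Of all 32851 windows, 0.0487% held a match to this element. The motifs were chosen with the sequences in view, so the order of the windows and the rarity of a match are a description only. The FoxO element of Txnip began 121 bases before the start (3.65% of all windows held a match), and CCAAT boxes began 137 and 102 bases before it (37.4% of all windows). A match to the glucocorticoid response element was found in the Txnip window, as GCACACCGTGTCC, and in the printed Sgk1 window, where GAACAGAATGTTC began 188 bases before the start; 0.475% of all windows held a match. Fkbp5 and Ddit4 had CCAAT boxes only, and the 3 Tsc22d3 windows had none of these letters. The printed Sgk1 window is 1 of 6 for that gene and the Tsc22d3 window 1 of 3, and the sources used here do not say which start a probe reports on.

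Mean probe signal ran from 359 to 432 on Klf4-deficient arrays and from 417 to 445 on control arrays. A probe was called above background on an array past 3 times the SD of the background, a limit that lay between 21.8 and 23.7. In a principal component analysis 35.8% of the variance lay on a first axis that set Klf4-deficient array 3 apart, so differences are also given without that array. The brightest of the 3 Klf4 probes gave 80.6, 46 and 85.4 on Klf4-deficient arrays 1, 2 and 3, against 44, 18.4 and 24.6 on control arrays 1, 2 and 3, which goes against the labels' direction. Where it lies relative to the deletion is not stated, so it may check nothing, and Klf4-deficient stands for the label of these arrays throughout.

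The labelled cell type was checked against 11 markers of double-positive thymocytes, of which 10, Cd4, Cd8b1 and Rag1 among them, were above background on all 6 arrays. The exception was Cd8a, at 18.5, 34 and 12 on Klf4-deficient arrays 1, 2 and 3 and 32.7, 29.5 and 30.1 on control arrays 1, 2 and 3, near the limit, while the other CD8 chain gene, Cd8b1, gave 25892 to 26627 on Klf4-deficient arrays and 28518 to 29424 on control arrays. The summed signal of the 11 was 68787 to 78794 on Klf4-deficient arrays and 82015 to 86851 on control arrays. Transcripts that mark other marrow cells were above background in both groups, and whether they came from other cells or from the leukemia cells was not tested. Erythroid markers (8 of 12 above background on all 6 arrays, Epb42 under the limit on every array) summed to 42991 to 58452 on Klf4-deficient arrays and 35204 to 42996 on control arrays. Neutrophil markers (11 of 12, Mmp8 under the limit) summed to 76819 to 147654 on Klf4-deficient arrays and 75770 to 105334 on control arrays. Monocyte and macrophage markers (7 of 12) summed to 4672 to 11496 on Klf4-deficient arrays and 3818 to 5129 on control arrays. NK and innate-like T markers (4 of 13, with Cxcr6, Eomes, Gzmb, Klre1, Ncr1 and Tbx21 under the limit) summed to 2676 to 3587 on Klf4-deficient arrays and 2180 to 3146 on control arrays. B lineage markers (3 of 8, Pax5 under the limit) summed to 637 to 940 on Klf4-deficient arrays and 703 to 987 on control arrays. Megakaryocyte markers, with Gp1bb, Pf4, Ppbp and Vwf under the limit, stayed at 129 or less in sum, and stromal markers, with 5 of 7 under the limit, at 154 or less. In bulk RNA, fewer cells of a type and less RNA per cell cannot be told apart.

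Tsc22d3 was higher on every array labelled Klf4-deficient than on any control array at both of its probes above background. Gilz is a small leucine zipper protein that binds NF-kappaB and AP-1 factors and is among the genes that glucocorticoids induce most strongly in thymocytes. The brightest probe (ILMN_3150811) gave 1110, 1310 and 973 on Klf4-deficient arrays 1, 2 and 3, against 776, 666 and 826 on control arrays 1, 2 and 3. Its mean signal was 1131 ± 169 in the Klf4-deficient group and 756 ± 81.9 in the control group (SD, n = 3 each). On the normalized log2 scale the difference, Klf4-deficient minus control, was 0.68 ± 0.08 (SE), or 1.60-fold. On the deposited signal the lowest Klf4-deficient array, array 3, lay above the highest control array, array 3.

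A dimmer Tsc22d3 probe (ILMN_2701664) gave 74.1, 84.3 and 66.6 on Klf4-deficient arrays 1, 2 and 3, against 44.5, 46.8 and 63.9 on control arrays 1, 2 and 3. The groups did not overlap here either, with a narrow gap between Klf4-deficient array 3 and control array 3. The log2 difference was 0.50 ± 0.13 (SE), or 1.41-fold. The remaining Tsc22d3 probe (ILMN_2648224) lay under the background limit on all 6 arrays, between -1.2 and 8.7 on Klf4-deficient arrays and between -0.4 and 2.1 on control arrays, and no fold is given.

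The Tsc22d3 difference kept its direction under every alternative run. Alternatives that changed only the variance estimate, the set of probes fitted or the blocking by replicate number could not alter that difference. With groups that did not overlap, leaving out an array could hardly turn the sign of the 2 probes above background. Leaving out each array in turn, it ran from 0.62 to 0.73 for the brightest probe and from 0.40 to 0.61 for the dimmer probe, and without Klf4-deficient array 3 it was 0.69 and 0.53. Both probes kept their groups apart on the deposited signal, after centring on the median and after cyclic loess. Beside this, the erythroid markers deviated from their control mean by 0.19, 1.00 and 1.71 (log2) on Klf4-deficient arrays 1, 2 and 3, the monocyte markers by 0.35, 0.81 and 1.39 and the NK markers by 0.14, 0.51 and 0.67. As a log2 level the brightest Tsc22d3 probe lay at 10.11, 10.33 and 10.20 on these arrays, against 9.53, 9.44 and 9.64 on control arrays 1, 2 and 3. On control arrays 1, 2 and 3 the erythroid markers deviated by -0.44, 0.20 and 0.24, the monocyte markers by -0.01, 0.03 and -0.01 and the NK markers by -0.06, 0.02 and 0.04. The neutrophil markers deviated by -0.21, -0.03 and 1.18 on Klf4-deficient arrays 1, 2 and 3, and the B lineage markers by -0.01, 0.07 and 0.20. On control arrays 1, 2 and 3 the neutrophil markers deviated by -0.05, 0.30 and -0.25 and the B lineage markers by -0.36, 0.20 and 0.16. On this normalized scale the probe and these marker lists were all lowest, among Klf4-deficient arrays, on array 1. The lists were highest on array 3 and the probe on array 2, and the probe's deposited signal was lowest on array 3. The part of other cells' RNA in the Tsc22d3 difference was not tested.

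**Figure D1:**
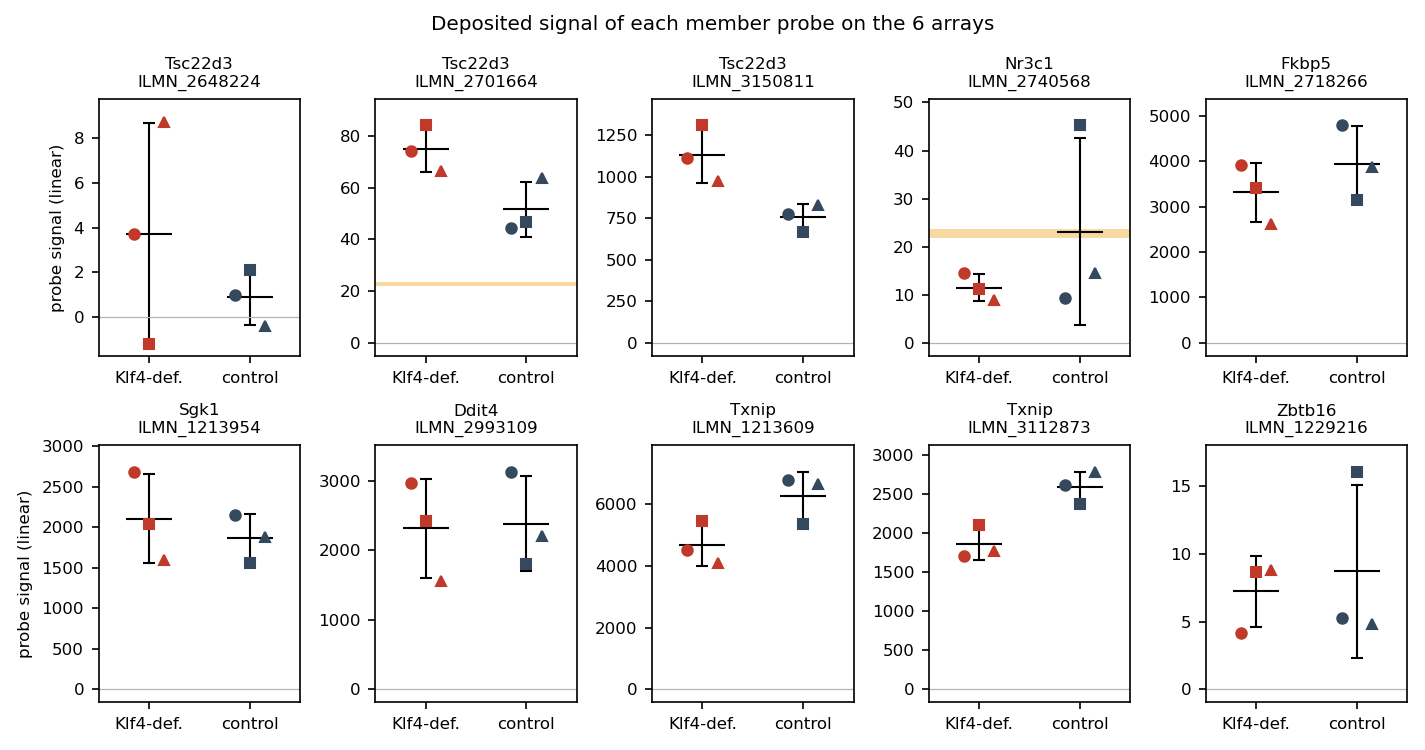
Deposited signal of each of the 10 probes (linear scale, one panel a probe) on Klf4-deficient arrays (Klf4-def., red) and control arrays (dark blue), with circles, squares and triangles for arrays 1, 2 and 3, and the mean with its SD as a black line and bar. The shaded band is the range of the background limits, drawn where it falls within the axis of a dim probe. ILMN_3150811 of Tsc22d3 sits between 973 and 1310 on Klf4-deficient arrays and between 666 and 826 on control arrays.

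The receptor gene Nr3c1 was measured by 1 probe near the background. It gave 14.5, 11.1 and 8.9 on Klf4-deficient arrays 1, 2 and 3, against 9.4, 45.3 and 14.6 on control arrays 1, 2 and 3. Only control array 2 was above background, and the groups overlapped. The log2 difference of -0.38 ± 0.39 (SE) rested on that array and was 0.01 without it. No level of the receptor transcript can be given from this probe.

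Fkbp5 and Sgk1, the classic hormone-induced genes beside Tsc22d3, had groups that overlapped. Fkbp5 encodes an immunophilin that binds Hsp90 in the receptor complex and lowers hormone binding, in a negative feedback. Its signal was 3911, 3407 and 2625 on Klf4-deficient arrays 1, 2 and 3, against 4797, 3146 and 3875 on control arrays 1, 2 and 3. The log2 difference was -0.14 ± 0.16 (SE), and it was -0.08 without Klf4-deficient array 3, -0.26 without control array 2 and -0.0040 without control array 1. Sgk1, a kinase related to Akt that regulates ion channels and FoxO factors, gave 2690, 2036 and 1596 on Klf4-deficient arrays 1, 2 and 3. On control arrays 1, 2 and 3 it gave 2157, 1555 and 1881. Its log2 difference was 0.26 ± 0.18 (SE), from 0.11 to 0.36 when an array was left out, with Klf4-deficient array 1 the highest of the 6 and control array 2 the lowest.

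Ddit4 (Redd1), which restrains the growth kinase complex mTORC1 under stress and is also a hormone target, did not differ in a settled direction. Its signal was 2972, 2413 and 1557 on Klf4-deficient arrays 1, 2 and 3, against 3130, 1807 and 2209 on control arrays 1, 2 and 3. The log2 difference was 0.05 ± 0.26 (SE), and it ran from -0.12 without Klf4-deficient array 1 to 0.25 without control array 1. The spread within each group was nearly as wide as the whole range of the gene, with the highest and the lowest values of both groups close to each other.

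Txnip was lower in the group labelled Klf4-deficient at both of its probes. Txnip binds and inhibits thioredoxin, belongs to the alpha-arrestins, and reduces glucose uptake; its transcription is known to follow glucose through the MondoA and ChREBP factors, which bind carbohydrate response elements such as the element printed above. The brighter probe (ILMN_1213609) gave 4505, 5450 and 4110 on Klf4-deficient arrays 1, 2 and 3, against 6798, 5373 and 6665 on control arrays 1, 2 and 3. Its mean signal was 4688 ± 688 in the Klf4-deficient group and 6279 ± 787 in the control group (SD, n = 3 each), and the log2 difference was -0.33 ± 0.11 (SE), or 0.797-fold. After quantile normalization the groups did not overlap, with Klf4-deficient array 2 at 12.35 and control array 2 at 12.39 on the log2 scale, but they overlapped on the deposited signal and with arrays centred on the median.

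The other Txnip probe (ILMN_3112873) gave 1711, 2103 and 1770 on Klf4-deficient arrays 1, 2 and 3, against 2610, 2378 and 2777 on control arrays 1, 2 and 3. Here the groups stayed apart under each of the 4 scalings. The log2 difference was -0.37 ± 0.10 (SE), or 0.775-fold, and it was -0.43 without Klf4-deficient array 3. Over 16 alternatives the difference ran from -0.42 to -0.27 for the brighter probe and from -0.48 to -0.27 for the other. The double-positive thymocyte markers lay in the same direction, at -0.16, -0.06 and -0.15 (log2, relative to their control mean) on Klf4-deficient arrays 1, 2 and 3, and their part in the Txnip difference was not tested.

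Zbtb16 (Plzf), the transcription factor that directs the development of NKT and other innate-like T cells, did not exceed the background limit on any array. Its probe gave 4.2, 8.7 and 8.8 on Klf4-deficient arrays 1, 2 and 3, against 5.3, 16.1 and 4.8 on control arrays 1, 2 and 3. No fold is given.

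After normalization the groups were apart for 4 of the 10 probes, 2 of them higher and 2 lower in Klf4-deficient arrays. Among all 45281 probes the same held for 4.29% as higher and 5.26% as lower, and nothing is read from the members' count, since they were chosen on this comparison. At an adjusted p under 0.05 from limma, 0.00221% of all probes were called higher (1 probe, of Commd10) and 0.00221% lower (1 probe with no gene name here, below background throughout). Both were named after their values were seen. As a description of size, among 15173 probes above background on all 6 arrays, 98.3% had a smaller absolute log2 difference than ILMN_3150811 of Tsc22d3 and 92.1% a smaller one than ILMN_3112873 of Txnip, while 24.3% had a smaller one than Ddit4. The median absolute difference of those probes was 0.11.

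**Figure D2:**
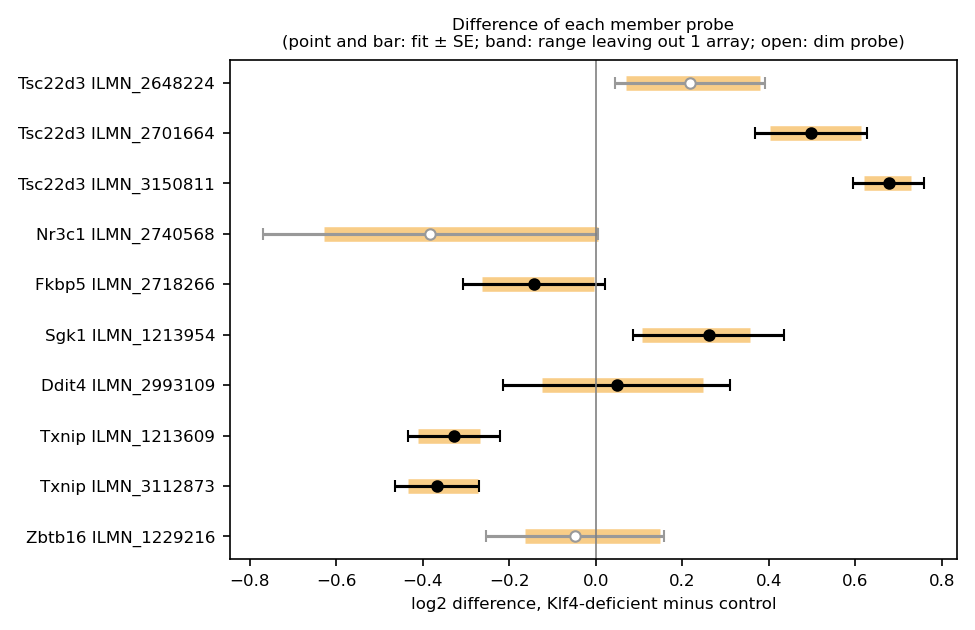
Log2 difference, Klf4-deficient minus control, of each of the 10 probes, with the fitted value and its SE as a point and bar and the range over leaving out each of the 6 arrays as an orange band. Open grey points are the 3 probes that were under the background limit on at least 5 arrays. Both filled Tsc22d3 points (0.68 and 0.50) and both Txnip points (-0.33 and -0.37) keep their bands clear of 0, whereas the Ddit4 band runs from -0.12 to 0.25. Where the groups do not overlap, leaving out an array could hardly bring a band to 0.

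The members did not all vary together over the arrays. Each profile was centred on its own mean, and the likeness of a pair was taken as the root mean square (RMS) of the difference between the centred log2 profiles over the 6 arrays. Among pairs of different genes the shortest distances were 0.158 for Fkbp5 and Ddit4, 0.171 for Sgk1 and Ddit4, 0.191 for Fkbp5 and Txnip ILMN_1213609 and 0.217 for Fkbp5 and Sgk1. Fkbp5, Ddit4 and Sgk1 shared high values on Klf4-deficient array 1 and control array 1 and low values on control array 2, an order that cuts across the groups. The brightest Tsc22d3 probe lay farther from all 3 of them, at 0.457 from Fkbp5, 0.441 from Ddit4 and 0.311 from Sgk1. From the Txnip probes it lay at 0.507 and 0.528. For scale, the 2 Txnip probes lay 0.103 apart and the Tsc22d3 probes above background 0.134 apart. All 6 arrays are shared by these profiles, and they are given as a description. The group means were not removed, so each distance includes the difference between the groups, with which the members were chosen.

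**Figure D3:**
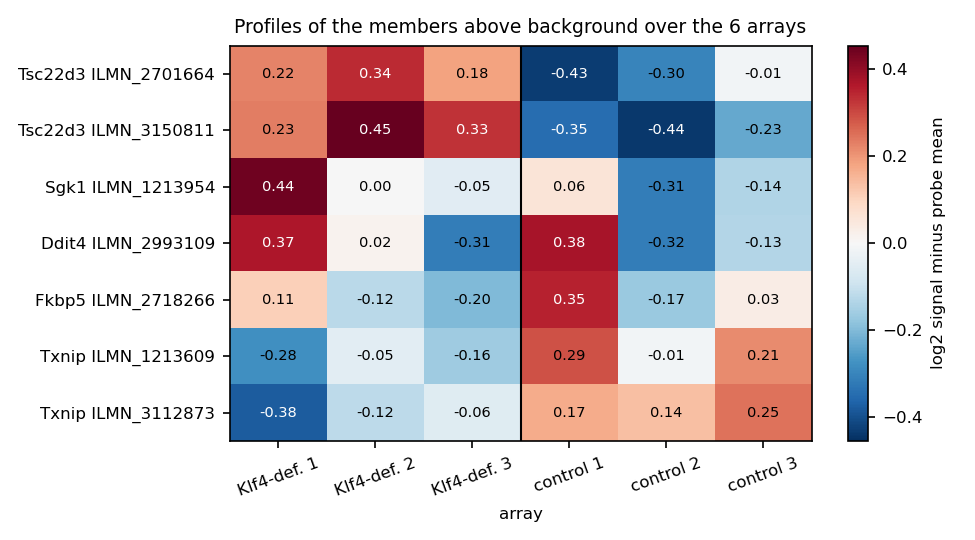
Log2 signal of the 7 probes above background on each array after subtracting the probe's own mean, with Klf4-deficient arrays (Klf4-def.) left of the line and control arrays right of it; red is above the mean and blue below. The Tsc22d3 rows change sign at the line, as does the row of Txnip ILMN_3112873 in the other direction, while Txnip ILMN_1213609 is below its mean on control array 2 too (-0.01); Sgk1, Ddit4 and Fkbp5 are high on Klf4-deficient array 1 (0.44, 0.37 and 0.11) and control array 1 (0.06, 0.38 and 0.35).

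Among 8360 other genes above background on all 6 arrays, the 5 with the profile nearest to the brightest Tsc22d3 probe were Phf11d, Irf9, Rfx7, H2-D1 and Gimap7. Their RMS distances were 0.076, 0.088, 0.111, 0.114 and 0.116, against a median of 0.382 over all genes compared. These distances too include the difference between the groups. Irf9, which brings the STAT factors activated by interferon to DNA, had a mean signal of 525 in the Klf4-deficient group and 340 in the control group (log2 difference 0.72, adjusted p = 0.329 from limma). H2-D1, a classical MHC class I heavy chain whose probe may share signal with close paralogs, had 4376 in the Klf4-deficient group and 2853 in the control group (0.72, adjusted p = 0.548). Gimap7, a GTPase of lymphocytes, had 283 in the Klf4-deficient group and 211 in the control group (0.48, adjusted p = 0.571). None of the 5 was a member or belonged to the pathway lists below, and none passed.

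The other genes of the hormone pathway and of the members' families were taken as 13 lists with 148 distinct genes measured, 1 probe a gene. In limma 0 of the 148 passed over all probes in either direction, and before adjustment 9 as higher and 6 as lower had a p under 0.05, where 3.48% and 4.13% of all 19057 genes did so. Without Klf4-deficient array 3, Esr2 was called as higher (adjusted p = 0.0201 from limma), although its probe was below background throughout. Groups did not overlap for 15 as higher (10.1%) and 9 as lower (6.08%), where 5.48% and 6.09% of all 19057 genes did so. The median log2 difference was 0.05, against 0.00 over all genes. List medians moved with the scaling. With no normalization the median of the 8866 genes above background on all arrays of a group was -0.11, against -0.01 after quantile normalization.

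Over 34 measured members of the list of other glucocorticoid-induced genes the median log2 difference was 0.10, and 26 of them were above background on all arrays of a group. That median was 0.05 with arrays centred on the median and 0.03 with no normalization. Irs2, an insulin receptor substrate that FoxO factors also induce, had the smallest p of the list. It gave 231, 231 and 219 on Klf4-deficient arrays 1, 2 and 3, against 327, 294 and 306 on control arrays 1, 2 and 3 (log2 -0.32 ± 0.05 SE, adjusted p = 0.442 from limma). Those groups did not overlap. Gpr65, a proton-sensing receptor found as a death-associated gene of T cells, differed by 0.39 ± 0.15 and Hif3a by 0.33 ± 0.13 (adjusted p = 0.824 for both, from limma). Hormone-repressed genes had a median of 0.14, which ran from 0.06 to 0.31 over 17 alternatives. Of the 14 measured genes, 6 were above background on all arrays of a group. Among these Fos, a subunit of AP-1, gave 1600, 459 and 524 on Klf4-deficient arrays 1, 2 and 3, against 323, 231 and 709 on control arrays 1, 2 and 3 (log2 1.02 ± 0.64 SE, adjusted p = 0.824 from limma). Klf4-deficient array 1, the highest for Fos, was also the highest for Sgk1. Icam1 differed by 0.20 ± 0.08 and Il1b by 0.88 ± 0.53. Il1b was 0.35 without Klf4-deficient array 3, the array with the highest monocyte, erythroid and neutrophil markers. The part of other cells' RNA in the Il1b difference was not tested.

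The list of receptor chaperones and co-chaperones had a median of 0.09 over 14 measured genes, and it was 0.01 with arrays centred on the median and -0.02 with no normalization. After quantile normalization 4 had groups that did not overlap as higher and 2 as lower, where 5.48% and 6.09% of all 19057 genes did so. On the deposited signal the counts were 1 and 1, for which no share over all genes is given. Hsp90aa1, an inducible Hsp90, differed by 0.29 ± 0.08, Hspa8, the constitutive Hsc70, by 0.22 ± 0.07 and the Hsp40 gene Dnajb1 by 0.19 ± 0.06 (SE, adjusted p between 0.686 and 0.763 from limma). Receptor coregulators had a median of -0.07 over 10 measured genes. Ep300, a histone acetyltransferase, differed by -0.28 ± 0.08, Med1 of the Mediator by -0.20 ± 0.09 and Smarca4, a motor of chromatin remodelling, by -0.15 ± 0.09 (adjusted p between 0.718 and 0.824 from limma). All 4 measured genes of other steroid receptors (Nr3c2, Pgr, Esr1 and Esr2) stayed below background throughout. Of the genes of corticosteroid synthesis, conversion and export, 3 of 8 were above background on all arrays of a group. Hsd11b1, which regenerates active hormone from its inactive form, had a mean signal of 3104 ± 529 in the Klf4-deficient group and 2797 ± 104 in the control group (SD, n = 3 each). Its log2 difference was 0.26 ± 0.20 and those of H6pd and Cyp11a1 were -0.06 ± 0.13 and 0.08 ± 0.18 (SE).

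The closest relatives of the members did not pass either. Of the TSC22 family, Tsc22d2 differed by 0.25 ± 0.07, Tsc22d4 by 0.07 ± 0.05 and Tsc22d1 by -0.07 ± 0.19 (SE, adjusted p = 0.677, 0.824 and 1.00 from limma). The FKBP family had a median of 0.09 over 12 genes, which was 0.02 without Klf4-deficient array 3 and 0.03 with no normalization, with Fkbp1a at 0.16 ± 0.04, Fkbp4 at 0.16 ± 0.08 and Fkbp11 at 0.55 ± 0.27. Around Sgk1, the mTORC2 subunit Mapkap1 differed by -0.26 ± 0.11, the ubiquitin ligase Nedd4l by -0.09 ± 0.06 and the activating kinase Pdpk1 by -0.07 ± 0.07. Around Ddit4, 15 genes of the mTORC1 pathway had a median of 0.02, which was -0.02 with arrays centred on the median and -0.05 with no normalization. Tsc1, whose complex carries the inhibition by Ddit4, differed by -0.32 ± 0.07, and Rptor, the scaffold of mTORC1, by -0.24 ± 0.05 (adjusted p = 0.569 and 0.573 from limma). Eif4ebp1, a translation repressor that mTORC1 phosphorylates, differed by 0.40 ± 0.20.

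Around Txnip, 12 alpha-arrestin, thioredoxin and Mondo genes had a median of 0.00, from -0.04 to 0.10 over 17 alternatives. Txn1, the thioredoxin that Txnip binds, gave 271, 306 and 188 on Klf4-deficient arrays 1, 2 and 3, against 221, 159 and 185 on control arrays 1, 2 and 3. Its log2 difference was 0.48 ± 0.14 (SE, adjusted p = 0.718 from limma), with groups that overlapped on the deposited signal but not after normalization. The mitochondrial reductase Txnrd2 differed by 0.42 ± 0.17, and Mlxip, which encodes MondoA, by -0.15 ± 0.10. Around Zbtb16, 9 BTB zinc finger genes had a median of 0.05, whose sign turned without Klf4-deficient array 3 (-0.04), with arrays centred on the median (-0.02) and with no normalization (-0.05), with Patz1 at 0.28 ± 0.07, Zbtb7a at 0.22 ± 0.15 and Zbtb17 at -0.15 ± 0.05. FoxO factors and targets had a median of 0.00 over 13 genes, from -0.07 to 0.04 over 17 alternatives, and groups were apart for 0 of them, where 0 had an unadjusted p under 0.05 in limma. Foxo1 differed by -0.13 ± 0.09, Foxo3 by 0.23 ± 0.09 and Klf2, a FoxO target of T cell trafficking, by 0.54 ± 0.39 (SE). Klf2 gave 1306, 518 and 480 on Klf4-deficient arrays 1, 2 and 3, against 568, 427 and 516 on control arrays 1, 2 and 3, so a single Klf4-deficient array stood above the rest.

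**Figure D4:**
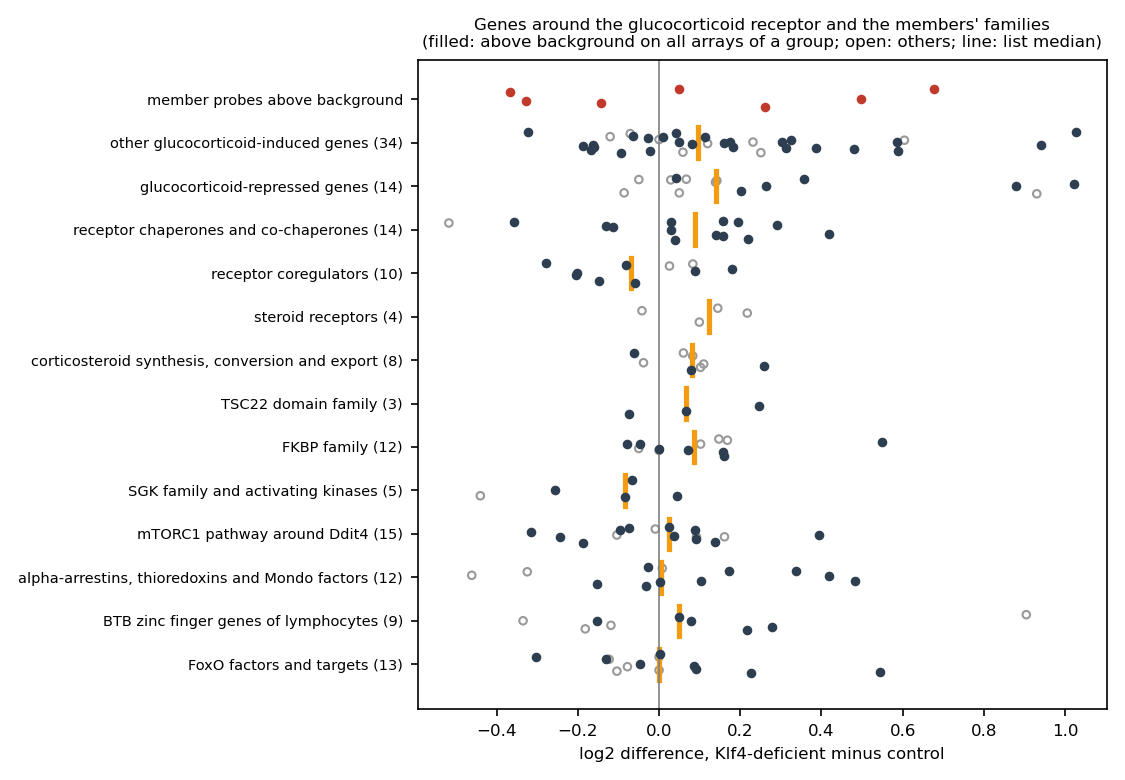
Log2 difference, Klf4-deficient minus control, of the member probes above background (red, top row) and of the measured genes of 13 lists (number of genes in brackets). Filled points are genes above background on all arrays of a group, open points the others, and the orange line is the list median, which lies between -0.09 for the SGK list and 0.14 for the hormone-repressed genes.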

How the data were processed

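Per the submitters' processing notes the authors used BeadStudio, and the deposited numbers are linear probe intensity. Between 31.3% and 34.2% of the values of an array lie below 0. Their background correction, normalization, detection p-values and build: not given in the sources used here. For this report negative values became 0 and log2(value + 16) was quantile normalized. Every probe was fitted with limma 3.58.1 in R 4.3.3 (lmFit, eBayes with a variance trend) and p-values were adjusted by Benjamini-Hochberg over 45281 probes, with a threshold of 0.05. Of these probes, 34885 carried 1 gene symbol, 18 several and 10378 were unnamed here. Symbols were updated by Entrez ID in RefSeq for 34807 probes. For lists, the probe with the highest mean stood for a gene (19057 genes). The background limit was 3 times the SD of the negative values mirrored around 0, defined after the data were seen. Members, lists and motifs were chosen with earlier results of these data known. Named were all members, the 3 genes of each list with the smallest p above background on all arrays of a group, and the 5 nearest profiles. The fit was tested on simulated data. The number of arrays limits the precision. Alternatives were median centring, cyclic loess, no normalization, offsets of 1 and 50, the brighter probes, no trend, array weights, robust moderation, the replicate number as block, 1 probe a gene, the mean of a gene's probes, and leaving out each array.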

Additional observations from a re-analysis of the deposited data

How the results depend on the processing

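The Tsc22d3 and Txnip probes above background kept their direction under all 16 alternatives. Their groups did not overlap after quantile normalization, so leaving out an array could hardly turn it. With no variance trend, robust moderation, the replicate block or only the brighter probes, the fitted difference stays the same by design. Among members above background the value that moved by more than the spread between arrays was ILMN_3150811 of Tsc22d3, at 0.57 with no normalization between arrays. Leaving out an array gave ranges of 0.62 to 0.73 and 0.40 to 0.61 for Tsc22d3, -0.41 to -0.27 and -0.43 to -0.27 for Txnip, -0.26 to -0.0040 for Fkbp5, 0.11 to 0.36 for Sgk1 and -0.12 to 0.25 for Ddit4. Medians of the 13 lists moved by more than the spread between arrays under 0 to 9 of up to 17 alternatives, most often for the FKBP family (0.02 to 0.12). The dim Tsc22d3 probe ILMN_2648224 was 0.91 with an offset of 1. In limma the probes called higher and lower numbered 1 and 1. They were 0 and 0 with arrays centred on the median (1180 and 1043 at an unadjusted p under 0.05), and 0 and 0 with the replicate block (1114 and 1326). Cyclic loess gave 0 lower (1240 unadjusted), the brighter probes 0 lower (922 unadjusted), and 1 probe a gene 2 higher and 0 lower. An offset of 1, no variance trend and robust moderation each gave 2 higher. Leaving out an array gave 1 to 45 higher and 1 to 42 lower. The main fit did not pair arrays by replicate number. Deviations of same-numbered arrays correlated at 0.157, -0.026 and -0.184 across probes, which does not settle whether the arrays were paired. With the replicate block the SE was smaller for Fkbp5 (0.08), Sgk1 (0.08), Ddit4 (0.13) and Txnip ILMN_3112873 (0.08). It was larger for Tsc22d3 ILMN_3150811 (0.09) and ILMN_2701664 (0.14) and for Txnip ILMN_1213609 (0.14). Probes near the background, as for Nr3c1 and Zbtb16, limit what can be said of those genes.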
